A study of Homo sapiens with 4 samples.

Results

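The genes FOS, FOSB, FOSL1, FOSL2, JUN, JUNB, JUND, EGR1, IER2 and IER3, were taken by symbol from the deposited expression table, which lists 58174 genes. All 10 were found, each in 1 row. RNA sequencing was done on H1299 and HCC827, established human lung cancer cell lines, 48 h after transfection with a control siRNA (siCTR) or an siRNA against CDH3 (siCDH3), the gene of the adhesion protein P-cadherin. The groups were H1299 siCTR, H1299 siCDH3, HCC827 siCTR and HCC827 siCDH3, with 1 library in each, and the study asked what a transient loss of CDH3 does to gene expression in each line. H1299 was derived from a lymph node metastasis, and HCC827, from an adenocarcinoma, carries an activating deletion in EGFR. Sequences of the siRNAs and what the control siRNA targets were not used here.

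AP-1 is a dimer of basic leucine zipper proteins. JUN proteins pair with each other or with FOS proteins, whereas FOS proteins need a JUN partner to bind DNA. Many of these genes, with EGR1, IER2 and IER3, are immediate early genes: growth factors, EGFR and MAP kinase signalling switch them on within minutes without new protein synthesis, and their mRNAs decay quickly. Because the response to a stimulus is brief, a sample taken long after transfection would miss an early peak that followed it. The state of the cells at harvest is not given. In lung carcinoma cells FOSL1 is known as a target of RAS and ERK signalling.

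Values are TPM, transcript abundances that divide reads by transcript length, so that levels of different genes within a library can be compared. Each library summed to between 999859 and 999943 TPM. The read depth is unknown, so no counting interval can be given. Between 10713 and 11329 genes reached 5 TPM per library. Mitochondrially encoded genes took 13.5% to 16.4% of TPM in H1299 and 34.4% to 36.2% in HCC827. CDH3 itself had 173 TPM in HCC827 siCTR and 78.8 in HCC827 siCDH3, against 1.21 and 0.169 in H1299, where the targeted gene was thus low before silencing. Of 6 epithelial markers, all 6 reached 5 TPM in both HCC827 libraries and 3 did so in both H1299 libraries, while 0 of 5 hematopoietic and 0 of 4 endothelial markers and at most 1 of 5 fibroblast markers did so in any library. Of 4 mesenchymal markers, 4 reached 5 TPM in H1299 and 2 in HCC827.

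Upstream sequences are shown for the genes whose siCDH3 values moved furthest apart between the lines, IER2 and FOS, and for EGR1, whose CArG boxes are the classic docking sites of serum response factor. RefSeq windows (GRCh38.p14) were matched for 8 of the 10 genes, all but FOSL1 and IER3. For 7 of these 8, bases just after the start were also found in a coding transcript of the GENCODE 29 annotation. The 250 bases before the start are printed 5′ to 3′, for IER2 chr19:13150161-13150410 (plus strand), for FOS chr14:75278578-75278827 (plus strand) and for EGR1 chr5:138465229-138465478 (plus strand). Capitals mark the letters TGACG on either strand (CGTCA when read on the minus strand) (the core of the cAMP response element), CArG boxes, and TATAAA on the gene's own strand.
IER2: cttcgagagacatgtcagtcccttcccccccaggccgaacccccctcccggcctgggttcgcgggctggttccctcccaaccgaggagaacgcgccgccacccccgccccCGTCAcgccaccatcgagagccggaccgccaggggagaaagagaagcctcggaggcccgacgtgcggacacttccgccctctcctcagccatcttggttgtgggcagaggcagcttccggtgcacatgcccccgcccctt
FOS: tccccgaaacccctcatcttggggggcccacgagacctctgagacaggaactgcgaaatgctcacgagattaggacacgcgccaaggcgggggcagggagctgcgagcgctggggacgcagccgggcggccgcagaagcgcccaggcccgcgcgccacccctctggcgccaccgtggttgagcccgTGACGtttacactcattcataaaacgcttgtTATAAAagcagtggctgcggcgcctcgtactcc
EGR1: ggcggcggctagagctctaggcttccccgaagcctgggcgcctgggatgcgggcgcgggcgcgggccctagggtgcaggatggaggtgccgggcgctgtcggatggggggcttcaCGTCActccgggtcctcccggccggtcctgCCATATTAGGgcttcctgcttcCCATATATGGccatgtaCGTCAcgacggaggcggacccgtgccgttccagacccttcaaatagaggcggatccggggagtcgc

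In the FOS window TGACG spans bases 64 to 60 before the start and TATAAA bases 33 to 28. EGR1 has CArG boxes at bases 105 to 96 and 83 to 74, with CGTCA at 135 to 131 and at 66 to 62. IER2 has 1 CGTCA, at bases 140 to 136, and no TATAAA or CArG box in this window. TGACG on either strand was present in 8 of the 8 windows, against 21.2% of all 35116 windows of the same length. TATAAA was in the windows of FOS, FOSB and JUNB (6.80% of all windows), the CArG box in that of EGR1 alone (1.16%), and the full element TGACGTCA, which contains TGACG, in that of JUND alone (1.65%). TGANTCA, where N is any base, was in 0 of 8 windows and in 6.57% of all. It is looser than the AP-1 site, which has C or G in the middle, so the share of windows with that site is at most this. These are letter matches and not measured binding, and bases further upstream than these windows were not searched.

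FOSB, IER2, JUNB and JUND lie on chromosome 19, and FOS, FOSL2, JUN and EGR1 on chromosomes 14, 2, 1 and 5. Transcript structure varied among the members. In GENCODE 29, JUN, JUNB and JUND have a single exon, and 6 of the 10 genes have at most 2 exons, against 4.93% of the 11199 expressed coding genes, whose median is 10 exons. The decay-associated letters ATTTA occur at 6.64 per 1000 bases of 3′ UTR in IER3 and 6.20 in FOS, and not at all in IER2, where the median of expressed coding genes is 1.69, and 5 of the 10 members lie above that median. The longer AU-rich element TTATTTATT is in the 3′ UTR of FOS and FOSL2, 2 of 10 genes, and in 9.11% of expressed coding genes.

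**Figure D1:**
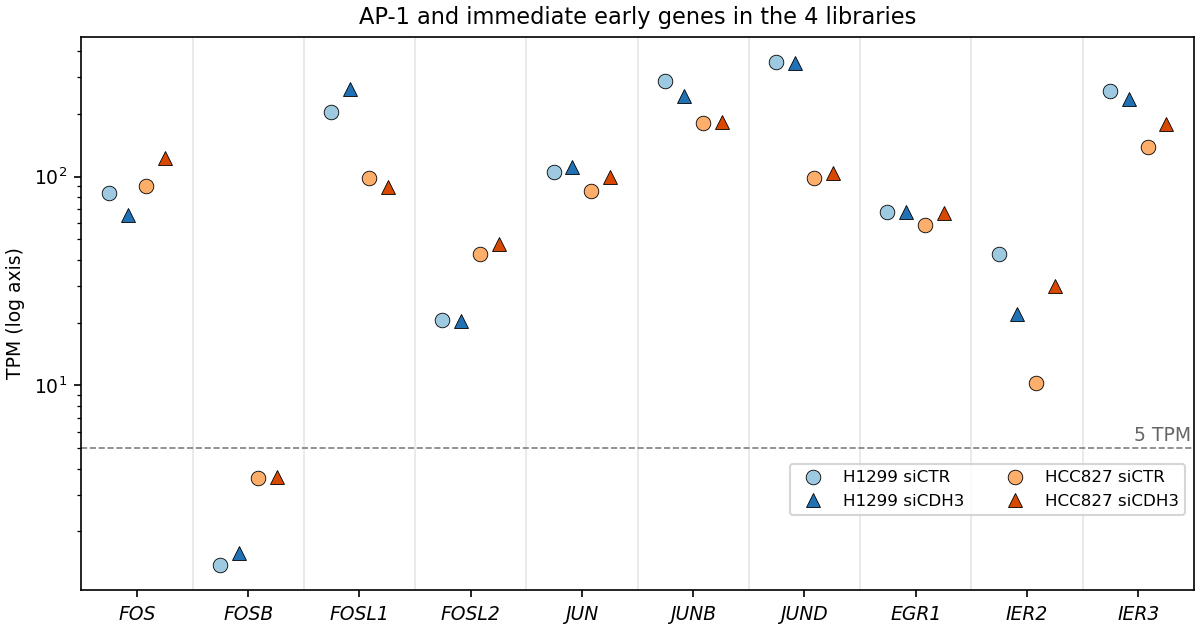
TPM (log axis) of the 10 genes, 1 point per library, with circles for siCTR and triangles for siCDH3, and a dashed line at 5 TPM. JUND and FOSL1 lie apart by line, FOSB lies under 5 TPM in every library, and the order of the IER2 points turns between H1299 (42.7 to 22.1 TPM) and HCC827 (10.3 to 29.8 TPM).

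For each line, siCDH3 was set over siCTR as a log2 ratio of TPM + 1, using genes that reached 5 TPM in either library. Adding 1 understates the ratios of low genes. Of the 10 genes, 9 passed this filter in both lines, and FOSB did not. With 1 library per group no ratio within a line has a replicate check, and none was tested. The median ratio of all filtered genes was -0.11 in H1299 and 0.03 in HCC827, so the members' H1299 ratios are also given relative to that median, which adds 0.11. Ratios of list genes are as deposited unless stated. In these cultures, fewer cells expressing a gene and less RNA per cell cannot be told apart.

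IER2, a short-lived nuclear protein gene that marks growth factor responses, had 42.7 (siCTR) and 22.1 TPM (siCDH3) in H1299 and 10.3 and 29.8 TPM in HCC827. It was the lowest of the 9 filtered genes in HCC827 siCTR, and siCDH3 libraries of both lines lay between the control libraries. The log2 ratio was -0.92 in H1299 (-0.82 relative to the median of all genes) and 1.44 in HCC827. In H1299, 234 of 11622 genes had a lower ratio, and in HCC827, 35 of 11043 had a higher one. The ratio in HCC827 exceeded that in H1299 by 2.37, and 13 of the 9724 genes filtered in both lines had a larger difference in that direction. IER2 was the 1 member with a difference of at least 1 in size, as had 4.31% of those genes. This difference between lines could not be tested, because an interaction term leaves no residual degrees of freedom.

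IER2 has 3 coding transcripts in GENCODE 29, of 1291 to 2934 bases, and TPM depends on the length assigned to the reads. An antisense gene, AC011446.2, overlaps IER2, and the strand setting of the authors' counting is not given, so reads of the pair cannot be told apart. AC011446.2 had 5.27 (siCTR) and 6.80 TPM (siCDH3) in H1299 and 1.22 and 2.11 TPM in HCC827. Its value was thus higher in siCDH3 in both lines, unlike that of IER2. STX10, a syntaxin gene that lies within 1000 bases of IER2 on the opposite strand, had 95.1, 83.3, 48.2 and 44.6 TPM in the same order, lower in siCDH3 in both lines.

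IER3, which encodes a stress-induced survival regulator, had 257 (siCTR) and 234 TPM (siCDH3) in H1299 and 138 and 178 TPM in HCC827. Both H1299 values were above both HCC827 values. The log2 ratio was -0.13 in H1299 (-0.03 relative to all genes) and 0.36 in HCC827, where 902 of 11043 genes had a higher one. Its antisense partner IER3-AS1 stood at 13.9 and 14.9 TPM in H1299 and at 0.166 and 0.176 in HCC827.

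EGR1, a zinc finger factor induced through serum response elements, had 67.8 (siCTR) and 67.6 TPM (siCDH3) in H1299 and 58.6 and 66.8 TPM in HCC827. The 4 libraries lay close together. Its log2 ratio was -0.0049 in H1299 (0.10 relative to all genes) and 0.19 in HCC827.

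Among FOS family genes, FOS itself, the founding member and a short-lived partner of JUN, had 83.1 (siCTR) and 65.4 TPM (siCDH3) in H1299 and 89.8 and 123 TPM in HCC827. Its log2 ratio was -0.34 in H1299 (-0.23 relative to all genes) and 0.45 in HCC827, where 623 of 11043 genes had a higher one. FOS and IER2 were thus lower in siCDH3 H1299 and higher in siCDH3 HCC827, each by at least 0.3 on the log2 scale as deposited. Of all 9724 genes filtered in both lines, 2.65% did the same, and 3.61% had opposite signs of that size in either order.

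FOSL1 encodes FRA-1, which lacks the strong activation domain of FOS and accumulates in cells with sustained ERK activity. It had 203 (siCTR) and 264 TPM (siCDH3) in H1299 and 98.5 and 89.2 TPM in HCC827. Here the directions were the other way round from FOS, with log2 ratios of 0.38 in H1299 (0.48 relative to all genes) and -0.14 in HCC827. In H1299, 814 of 11622 genes had a higher ratio.

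FOSL2, which encodes the related protein FRA-2, had 20.6 (siCTR) and 20.4 TPM (siCDH3) in H1299 and 42.4 and 47.3 TPM in HCC827. The lines did not overlap, and the ratios were -0.02 (0.09 relative to all genes) and 0.15. Its antisense partner FLJ31356 had 0.342 to 2.59 TPM. FOSB was low throughout, at 1.38 and 1.58 TPM in H1299 and 3.62 and 3.63 in HCC827. It overlaps the DNA repair gene ERCC1 on the opposite strand, which had 247 and 248 TPM in H1299 and 31.4 and 39.2 in HCC827, so the FOSB level is uncertain.

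JUN, the strongest activator of its family, had 105 (siCTR) and 111 TPM (siCDH3) in H1299 and 85.5 and 99.9 TPM in HCC827. It was higher in siCDH3 in both lines, with ratios of 0.08 (0.19 relative to all genes) and 0.22 (0.19). JUNB, which often opposes JUN in growth control, had 287 (siCTR) and 244 TPM (siCDH3) in H1299 and 179.6 and 183 TPM in HCC827, with ratios of -0.24 (-0.13 relative to all genes) and 0.03. JUND, the most steadily expressed family member in many cells, had 354 (siCTR) and 350.3 TPM (siCDH3) in H1299 and 98.8 and 104 TPM in HCC827, with ratios of -0.01 and 0.07, and of 0.09 and 0.04 relative to all genes. JUND had the highest level of the 10 genes in both H1299 libraries and JUNB in both HCC827 libraries. HOOK2, which overlaps JUNB on the opposite strand, had 19.6 to 35.3 TPM.

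By the 2-fold rule (a log2 ratio of 1 or more in size), 0 of 9 filtered members were past it in H1299, where 2.46% of all 11622 genes were (0.878% higher and 1.58% lower). In HCC827 the count was 1 of 9, IER2, which was higher, and 1.01% of all 11043 genes were at least 2-fold higher, 0.833% lower and 1.84% either. At 1.5-fold, IER2 alone was past the rule in each line, against 10.3% of all genes in H1299 and 5.89% in HCC827. The members' median log2 ratio was -0.02 in H1299 (0.09 relative to all genes), with 7 of 9 below 0, as were 64.8% of all genes, and 4 of 9 below the median of all genes. In HCC827 it was 0.19 (0.16 relative to all genes), with 8 of 9 above 0, as were 57.1% of all genes. The members' shares past each rule rest on IER2, and their medians lay within 0.2 of those of all genes.

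**Figure D2:**
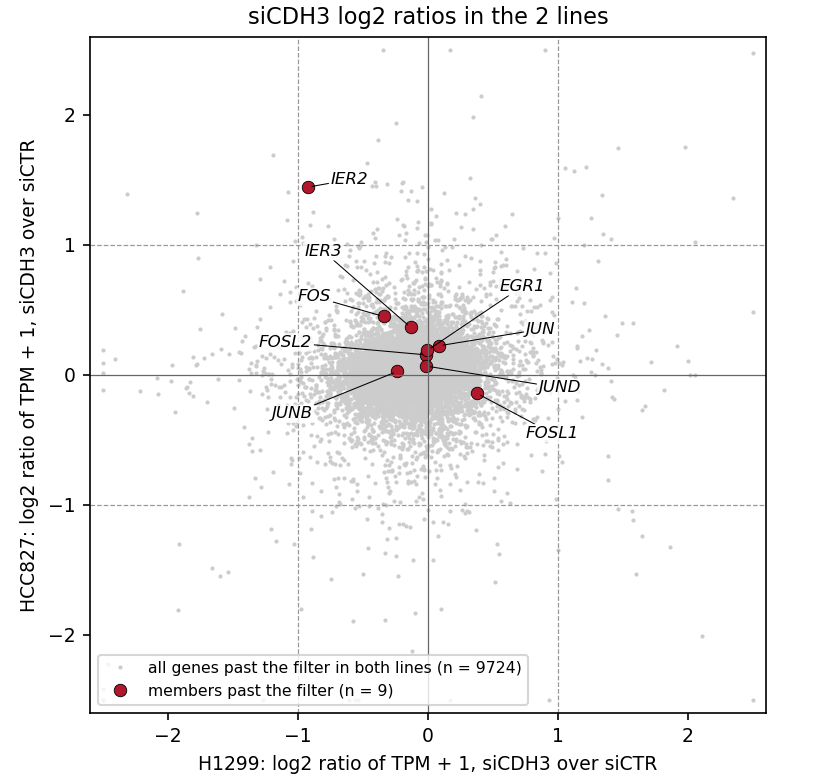
Log2 ratio of TPM + 1, siCDH3 over siCTR, in H1299 (x axis) against HCC827 (y axis), with red points for the 9 members past the filter and grey points for all 9724 genes, drawn at 2.5 where larger in size. Dashed lines mark 2-fold. IER2 lies at -0.92 and 1.44, away from the other 8 members, all of which are inside the 2-fold lines of both axes.

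To test the siRNA over both lines, limma was fitted to log2(TPM + 1) of 12941 genes with cell line and siRNA as terms. Here the 2 lines serve as replicates, and the spread is the difference between their responses. limma called 0 of 9 members for siCDH3 at a Benjamini-Hochberg adjusted p under 0.05, and 0.00773% of all genes, which is 1 gene, TNFRSF6B (lower, named after its value was seen). CDH3, the targeted gene, was itself not called, at -1.02 with a standard error of 0.16 (limma adjusted p 0.68). In H1299 it had 1.21 (siCTR) and 0.169 TPM (siCDH3), under the filter of that line, so its ratio there (-0.92) is understated by the added 1. The lines are thus unlike replicates of CDH3 silencing. No member had an unadjusted p under 0.05, against 4.49% of all genes. The largest mean difference among members was that of IER2, 0.26 with a standard error of 0.57 (limma adjusted p 0.98), in which opposite ratios average out. JUN had 0.15 with a standard error of 0.15 (limma adjusted p 0.95), higher in siCDH3 in 2 of 2 lines. These p-values do not show that the genes were unaffected.

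Levels without CDH3 silencing were compared between the lines. Taking siCTR alone, HCC827 over H1299, 1 of 9 filtered members was at least 2-fold higher in HCC827, FOSL2 at 1.01 (13.5% of all genes), and 3 were at least 2-fold lower, IER2 at -1.95, JUND at -1.83 and FOSL1 at -1.04 (27.8% of all genes). The median of all 12601 genes was -0.39. Relative to that median 19.2% of all genes were higher and 18.3% lower, FOSL2 stood at 1.40, IER2 at -1.56 and JUND at -1.44, and FOSL1 at -0.64 was no longer past the rule. JUNB stood at -0.67 (-0.28 relative to all genes), IER3 at -0.89 (-0.50) and FOS at 0.11 (0.50). JUN (-0.29) and EGR1 (-0.21) were lower in HCC827 as deposited and higher (0.10 and 0.18) relative to the median of all genes.

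The line term of the same limma fit compares 2 libraries per line, which differ in siRNA. It called 5 of 9 members, against 62.9% of all genes (21.5% higher and 41.3% lower in HCC827). JUND was lower in HCC827 by a log2 difference of -1.79 (standard error 0.15, limma adjusted p 0.00068), FOSL1 by -1.29 (0.19, adjusted p 0.0041) and FOSL2 higher by 1.09 (0.15, adjusted p 0.0036). All 3 calls held in 9 of 9 alternative settings. JUNB (-0.54, limma adjusted p 0.037) and IER3 (-0.64, limma adjusted p 0.036) were also lower in HCC827, but with the library medians set equal the adjusted p was 0.11 for JUNB and 0.073 for IER3. FOS was at 0.51 (limma adjusted p 0.12) and passed with equal medians, at 0.73 (adjusted p 0.030). Over all 12941 genes the fit called 2787 higher and 5351 lower in HCC827, and 3658 and 4449 with equal medians. Without mitochondrial and ribosomal protein genes it called 4661 higher and 3965 lower of 14255. With quantile normalization it called 3796 and 4265 of 12889.

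In TPM as deposited, 6 of the 9 filtered members (FOSL1, JUN, JUNB, JUND, EGR1 and IER3) had both H1299 values above both HCC827 values, as had 52.9% of all genes. FOS and FOSL2 had both HCC827 values higher, as had 30.4%. IER2 was the 1 filtered member whose lines overlapped. The gap for EGR1 was small, with 67.6 TPM as the lower H1299 value and 66.8 as the higher HCC827 value. Without mitochondrial and ribosomal protein genes in the scaling, the line difference of JUN and EGR1 turned to higher in HCC827.

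The families were also summed. FOS family genes together had 308 (siCTR) and 351 TPM (siCDH3) in H1299 and 234 and 263 TPM in HCC827. JUN family genes had 746, 706, 364 and 386 TPM in the same order, so that the summed JUN level was 2.42 and 2.01 times the FOS level in H1299 and 1.55 and 1.47 times in HCC827. FOSL1 made up 65.9% and 75.1% of the FOS family in H1299 siCTR and siCDH3, and 42.0% and 33.9% in HCC827. FOS made up 27.0% and 18.6% in H1299 and 38.3% and 46.7% in HCC827, where it passed FOSL1 in the siCDH3 library. JUND made up 47.4% and 49.6% of the JUN family in H1299 and 27.1% and 26.8% in HCC827, and JUNB 38.5% and 34.6% against 49.4% and 47.4%. These shares do not change when all genes of a library are multiplied by 1 factor. Quantile normalization is not such a factor, and shares under it were not computed.

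**Figure D3:**
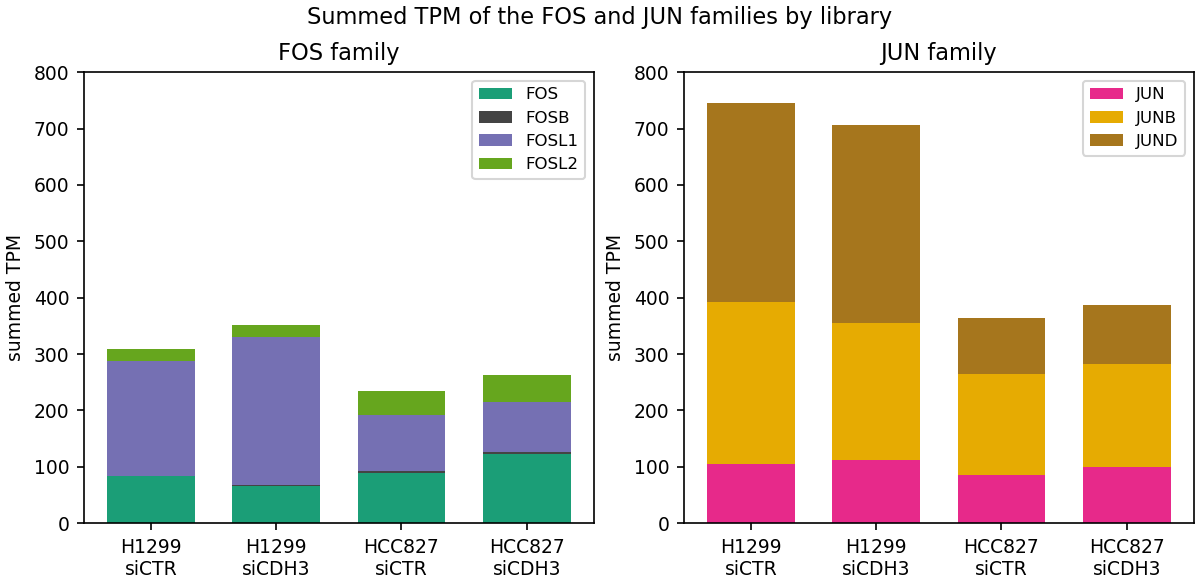
Summed TPM of the FOS family (left) and the JUN family (right), 1 stacked bar per library, both axes from 0 to 800. FOSL1 is the largest part of the FOS family in 3 libraries and FOS in HCC827 siCDH3 (46.7%), and JUND takes 47.4% to 49.6% of the JUN family in H1299 and 26.8% to 27.1% in HCC827.

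Genes with the most similar pattern were sought for the members at both ends of the control comparison, by Euclidean distance of centred log2(TPM + 1) over the 4 libraries. Closest to FOSL2 were the pseudogene RPSAP58 (distance 0.02), the phosphatase gene PPM1H (0.06) and ZNF717 (0.06), and 270 genes lay within 0.25. IER2 had 1 gene within 0.25, the zinc finger gene IKZF4 at 0.246, with 6.96 (siCTR) and 3.39 TPM (siCDH3) in H1299 and 0.913 and 3.68 TPM in HCC827. Next were the read-through gene SYS1-DBNDD2 (0.31) and the Golgi GTPase gene ARF4 (0.39), which had 226, 98.2, 59.1 and 193 TPM in the same order. Over 4 libraries such nearness describes the values and no more.

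Other genes around AP-1 were described in 6 lists with 135 genes. limma called 0 genes of any list for siCDH3, with a lowest adjusted p of 0.95 in each, but it did not call CDH3 either. Among other AP-1 and bZIP partners, 1 of 11 filtered genes was past the 2-fold rule in H1299 and 0 of 13 in HCC827. ATF7, a relative of ATF2 that pairs with JUN, had 44.7 (siCTR) and 20.6 TPM (siCDH3) in H1299 and 17.4 and 17.9 TPM in HCC827 (ratios -1.08 and 0.04). Relative to all genes the H1299 ratio was -0.97, no longer past the rule. CREB1, the cAMP response element factor, went from 5.05 to 8.22 TPM in H1299 and from 18.6 to 9.42 in HCC827 (0.61 and -0.91). BATF3, which pairs with JUN proteins, had 1.76 and 2.03 TPM in H1299 and 30.9 and 35.8 in HCC827, and the repressor gene JDP2 7.69 and 8.18 against 31.3 and 28.4. For the line term limma called 4 genes of this list higher and 1 lower in HCC827, of 13, where 21.5% of all genes were higher and 41.3% lower. With equal medians the counts were 6 and 1 (3658 and 4449 of all 12941 genes). Without mitochondrial and ribosomal protein genes they were 8 and 1 (4661 and 3965 of all 14255).

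Among other immediate early transcription factors, none of 13 filtered genes in H1299 or 12 in HCC827 was past the 2-fold rule, and the list medians were 0.01 and 0.04. KLF10, a TGF-beta induced factor, had 72.4 TPM in HCC827 siCTR and 44.4 in HCC827 siCDH3 (-0.69, past 1.5-fold), and 51.3 and 57.8 in H1299 (0.17). The paralogs of EGR1 were near 0, with EGR2, EGR3 and EGR4 at 0.620 TPM or less in all 4 libraries. KLF2 had 52.4 and 67.2 TPM in H1299 and 1.32 and 1.14 in HCC827, and KLF6 68.8 and 61.4 against 11.5 and 11.9. The line term called 3 of 14 higher and 6 lower in HCC827, beside 21.5% and 41.3% of all genes. With equal library medians the counts were 4 and 3 (3658 and 4449 of all 12941 genes). Without mitochondrial and ribosomal protein genes they were 5 and 2 (4661 and 3965 of all 14255).

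Immediate early effectors, such as phosphatases, RNA decay factors and secreted proteins, had 0 genes past the 2-fold rule in either line, of 20 and 19. Their medians were -0.10 in H1299, within 0.01 of that of all genes, and 0.17 in HCC827, which is 0.14 above all genes. TNFAIP3, a brake on NF-kB, had 8.50 (siCTR) and 5.15 TPM (siCDH3) in H1299 and 20.2 and 27.4 TPM in HCC827 (-0.63 and 0.43). GADD45B was lower in siCDH3 in both lines, at 42.3 and 31.3 TPM in H1299 and 11.5 and 9.30 in HCC827. CTGF, a secreted matricellular protein gene, had 47.6 and 48.4 TPM in H1299 and 1.58 and 1.28 in HCC827. limma called 6 of 21 higher and 10 lower in HCC827 for the line term, beside 21.5% and 41.3% of all genes. With equal medians the counts were 8 and 10 (3658 and 4449 of all 12941 genes). With quantile normalization they were 9 and 10 (3796 and 4265 of all 12889).

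Serum response factor and its cofactors, which carry ERK signals to the EGR1 and FOS promoters, had 0 of 11 genes past the 2-fold rule in each line, with ratios from -0.30 to 0.28 in H1299 and from -0.38 to 0.36 in HCC827. SRF had 60.0 and 57.3 TPM in H1299 and 26.6 and 27.2 in HCC827. The EGR1 corepressor genes NAB1 and NAB2 went opposite ways in HCC827, from 19.8 to 25.7 TPM and from 19.3 to 14.6. The line term called 2 of 11 higher and 5 lower, or 7 of 11, beside 62.9% of all genes. Without mitochondrial and ribosomal protein genes the counts were 3 and 3 (4661 and 3965 of all 14255 genes).

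The list of MAP kinases upstream of AP-1 also holds other kinases, such as RPS6KA2, and regulators that are not MAP kinases. It had 1 of 25 filtered genes past the 2-fold rule in H1299, MAPK14, and 0 of 26 in HCC827. MAPK14, the p38-alpha kinase, had 32.2 (siCTR) and 12.3 TPM (siCDH3) in H1299 and 8.66 and 9.19 TPM in HCC827 (-1.32 and 0.08). MAPK9, the JUN kinase JNK2, had 49.7, 25.7, 16.9 and 14.6 TPM in the same order (-0.92 and -0.20). In H1299, 17 of 25 lay below the median of all genes, and the median over this list was -0.22, or -0.11 against all genes. MAP2K3, which activates p38, had 88.5 TPM in HCC827 siCTR and 134 in HCC827 siCDH3 (0.59). The line term called 8 of 27 higher and 11 lower, beside 21.5% and 41.3% of all genes. With equal medians the counts were 11 and 10 (3658 and 4449 of all 12941 genes). Without mitochondrial and ribosomal protein genes they were 13 of 29 and 8 (4661 and 3965 of all 14255). RPS6KA2, an ERK-activated S6 kinase, stood at 0.248 and 0.152 TPM in H1299 and at 43.9 and 49.0 in HCC827.

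AP-1 target genes had 0 of 25 past the 2-fold rule in H1299 and 0 of 26 in HCC827, with medians of -0.13 and 0.08, each within 0.06 of that of all genes. CCND1 (cyclin D1) was lower in siCDH3 in both lines, at 137 and 92.5 TPM in H1299 and 148 and 126 in HCC827 (-0.56 and -0.23). TGFA, an EGFR ligand, had 92.8 and 60.8 TPM in H1299 and 9.73 and 10.9 in HCC827 (-0.60 and 0.15). CXCL8, a neutrophil-attracting cytokine gene, had the highest siCDH3 ratio of the list in HCC827, at 198 and 332 TPM (0.74), and 0.486 and 0.475 TPM in H1299. HMGA1, a chromatin protein gene, was higher in siCDH3 in H1299, at 1347 and 1987 TPM (0.56), and had 604 and 617 in HCC827. For the line term limma called 11 of 31 higher and 17 lower in HCC827, beside 21.5% and 41.3% of all genes. With equal medians the counts were 13 and 17 (3658 and 4449 of all 12941 genes). Vimentin (VIM) and the receptor kinase gene AXL were lower there, with control ratios of -8.92 and -7.51, and CXCL8 and the EGFR ligand genes AREG and EREG were higher, at 7.06, 6.63 and 6.47. The lines thus differed in both directions within 1 target list.

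**Figure D4:**
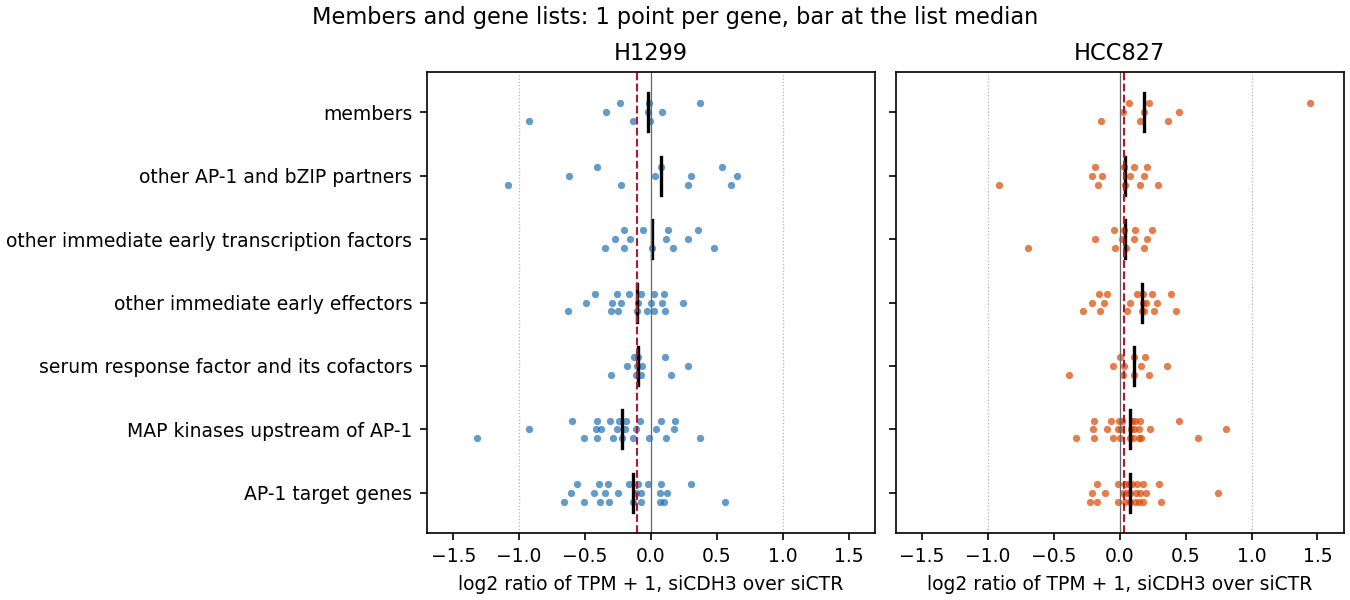
Log2 ratio of TPM + 1, siCDH3 over siCTR, of the filtered members and 6 gene lists in H1299 (left) and HCC827 (right), 1 point per gene, with a black bar at the list median, a red dashed line at the median of all genes and dotted lines at 2-fold. ATF7 (-1.08, or -0.97 relative to all genes) and MAPK14 in H1299 and IER2 in HCC827 lie past 2-fold, and every list median lies within 0.2 of that of all genes.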

How the data were processed

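Total RNA of 4 libraries in 4 groups was sequenced. The authors deposited 1 table of TPM values, 1 column per library, each matched to its library by the description in the labels. Per the submitters' processing notes the genome build is hg19. For the aligner, counting tool, annotation, strand setting and depth, the labels give nothing. No coordinates were converted: sequences and windows come from RefSeq (GRCh38.p14), and exon counts and 3′ UTRs from GENCODE 29, in which 57836 of the 58174 gene identifiers were found.

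From TPM, log2 ratios with a pseudocount of 1 were computed for genes with at least 5 TPM in at least 1 compared library. An additive model of cell line and siRNA was fitted over 12941 genes with limma 3.58.1 in R 4.3.3, with 1 residual degree of freedom and moderated variances. The line of each library, which pairs siCTR with siCDH3, is named in the labels. P-values were adjusted by Benjamini-Hochberg over all genes. Such p-values measure only the spread between these libraries. For the siRNA term the lines serve as replicates, and for the line term the 2 libraries of a line, which differ in siRNA. With 1 library per group, neither measures variation between cultures of a line given the same siRNA.

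Members and lists were chosen with earlier results of these data known. Genes named are all members, CDH3, and from each list those past 2-fold and up to 4 with the largest ratios per line or per direction of the control comparison, and the 3 genes nearest in profile to the members with the highest and lowest control ratio. Named outside this rule, after their values were seen, are TNFRSF6B, EGR2 to EGR4, and neighbouring and overlapping genes. Alternatives were other pseudocounts, filters, fold rules and scalings, limma with a trend and limma with 1 term. Values of some list genes are not reported here.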

Additional observations from a re-analysis of the deposited data

Results flagged for a closer look

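Both results below stand out because the log2 ratio of siCDH3 over siCTR had opposite signs in the lines, each of at least 0.3 in size. The difference was not tested, since each group has 1 library. IER2 had ratios of -0.92 in H1299 and 1.44 in HCC827, a difference of 2.37. FOS had -0.34 and 0.45, a difference of 0.79. Of all 9724 genes filtered in both lines, 3.61% met the same condition in either order. Over 5 alternative scalings and pseudocounts the IER2 ratio lay between -0.95 and -0.79 in H1299 and between 1.18 and 1.52 in HCC827, and that of FOS between -0.35 and -0.23 and between 0.41 and 0.45. In H1299 the FOS ratio was under 0.3 in size in 3 of these 5 settings, -0.23 with medians set to 0, -0.28 without mitochondrial and ribosomal protein genes and -0.25 with quantile normalization, so FOS no longer met the condition there. In HCC827 mitochondrially encoded genes took 36.2% of TPM in siCTR and 34.4% in siCDH3, and in H1299 13.5% and 16.4%, and their part in these ratios was not tested.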

How the results depend on the processing

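All p-values and fits rest on 4 libraries, and low TPM have unknown precision. Counts of genes at least 2-fold higher and lower in siCDH3 were 102 and 184 in H1299 and 111 and 92 in HCC827, and 1695 and 3500 in HCC827 over H1299 controls. A pseudocount of 5 gave 47 and 91 in H1299 and 53 and 46 in HCC827. A filter at TPM 1, or no filter, gave 228 and 308 in H1299, 193 and 180 in HCC827 and 2571 higher between controls, since more genes were counted. The 1.5-fold rule gave 373 and 826 in H1299, 370 and 280 in HCC827 and 5345 lower between controls, and the 4-fold rule 12 and 26, 15 and 18, and 906 and 1293. With medians set to 0 the controls gave 2300 lower (2418 higher), and H1299 140 higher and 134 lower. Scaling without mitochondrial and ribosomal protein genes gave 159 higher in H1299, 154 lower in HCC827 and 2938 higher between controls. For these scalings the cause was not tested.

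limma called 1 gene for siCDH3, and 0 without mitochondrial and ribosomal protein genes, with quantile normalization, with no filter and with no replicate block (cell line left out of the fit). The block changed no call among the members. Leaving out a library leaves the additive fit no residual degrees of freedom, so no such test was run. For the cell line, the differences of JUN and EGR1 turned from lower to higher in HCC827: JUN to 0.15 without mitochondrial and ribosomal protein genes and 0.083 with quantile normalization, EGR1 to 0.26 and 0.16, and EGR1 to 0.11 with equal medians. The cause was not tested. JUND, FOSL1 and FOSL2 kept an adjusted p under 0.05 in 9 of 9 alternatives, JUNB and IER3 in 4 and FOS, which did not pass in the fit reported, in 3.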

Other observations

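Genes beside the members, chosen after their values were seen, gave these values. CCDC85B, which lies within 1000 bases of FOSL1 on the opposite strand, had 164 (siCTR) and 181 TPM (siCDH3) in H1299 and 47.5 and 43.3 TPM in HCC827. Like FOSL1, it was higher in H1299 and, with siCDH3, higher in H1299 and lower in HCC827. FLOT1, a membrane raft protein gene within 1000 bases of IER3 on the same strand, had 474, 639, 174.5 and 151 TPM in the same order. IER3 had the opposite direction with siCDH3 in both lines. LINC01135, next to JUN, was at 0.0798 TPM or less in all 4 libraries.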
